A study of Mus musculus with 24 samples.

Results

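The genes described here are 9 components and regulators of the complement system, chosen by symbol among the 24958 named genes measured in the left ventricle (LV) of aged mice: C1qa, C1qb, C1s1, C2, C4b, Cfb, C3, C7 and Serping1. All 9 passed the filter on low values, a mean of at least 10. The choice of these genes was made with results of these data known, and the values behind it are not recorded, so the adjusted p-values below describe where each gene stood in a fit over all genes and are not independent support for the choice. Bulk mRNA sequencing covered 24 libraries, 4 in each of 6 groups of 24-month-old mice, and per the study's methods RNA of 2 mice was combined for every LV library, so that n is a number of pools. The groups were males gonadectomized at 12 months (Gx males), control males, females ovariectomized at 12 months and given angiotensin II (Ovx + AngII), ovariectomized females (Ovx), control females given angiotensin II (Ctrl + AngII) and control females (Ctrl). Angiotensin II, a peptide that constricts vessels and raises blood pressure, was infused by minipump at 1.5 mg/kg/day for 28 days, and no male received it. The methods give C57BL6/J as the strain of the females. Removal of the gonads takes away ovarian or testicular steroid hormones. The study states that sham surgery did not include a vehicle-filled pump. An AngII-treated mouse of this age was sacrificed early, and which mice went into which pool is not stated. A pool of AngII-treated mice may therefore hold RNA of fewer than 2 different mice. In a bulk sample, fewer cells of a type and less RNA per cell cannot be told apart.

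Complement is a cascade of plasma and tissue proteins that marks microbes, dying cells and immune complexes for removal. The classical pathway starts when C1q, a bundle of A, B and C chains made largely by macrophages, binds a target and activates the proteases C1r and C1s, which cleave C4 and C2 to form a C3 convertase. The alternative pathway amplifies the same step with factor B and factor D, C3 supplies the opsonin C3b, and C5 to C9 then assemble the membrane attack complex, in which C7 gives the complex its hold on the membrane. Serping1 encodes C1 inhibitor, which blocks C1r, C1s and also kallikrein. In the heart, fibroblasts and macrophages are known sources of complement transcripts outside the liver.

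The deposited values are normalized and do not resolve into whole reads, so sequencing depth is known only as a ratio to the median library, from 0.454 to 1.88. Ctrl + AngII libraries 40 (0.454) and 42 (0.524) were the shallowest and Ctrl library 38 (1.88) the deepest. Libraries 40 and 42 were above the rest of Ctrl + AngII in C1qa, C1qb, C1s1, C2, C4b, C3 and Serping1, but not in Cfb or C7. The part of depth in these values was not tested. Levels below are normalized values put on one scale across libraries, given in the order of the library numbers. Heart muscle markers were abundant in all libraries (Myh6 727467 to 966633), the liver marker Alb was at 0 in 22 of 24 libraries with a highest value of 3.17, and the macrophage marker Csf1r lay at 1197 to 2572. Ctrl library 39 stood apart from the other 3 Ctrl libraries in complement and in markers of blood-borne immune cells, and results that involve Ctrl are also given without it where that changes them.

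Per kilobase of exon, C3 had the highest mean level over the 24 libraries, with 2330 per kb, followed by Serping1 with 2019, C1qa with 1683 and C1qb with 1452 per kb. C1s1 had 622, C4b 326, C7 98.4, Cfb 81.3 and C2 13.4 per kb. C2 was also the lowest before division by length, at 8.59 to 90.5 in single libraries. Among libraries of the same group, Serping1 varied least, with a pooled SD of 0.17 on the log2 scale, the same as the median gene at 0.17, and Cfb varied most, with an SD of 0.66 that rests in part on library 39. C7 had the widest range of group means, 2.56 on the log2 scale, wider than 99.3% of 13799 genes. C2 (1.73) and Cfb (1.70) had ranges wider than 97.7% and 97.6% of genes, and C1s1 (0.38) had the narrowest of the 9, wider than 58.7% of genes.

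The genes lie in several clusters of the mouse genome (mm10). C1qa (chr4:136895917-136898803) and C1qb (chr4:136880129-136886187) flank C1qc on chromosome 4. C4b (chr17:34728380-34743882), Cfb (chr17:34856374-34862518) and C2 (chr17:34862604-34898265) lie close together on chromosome 17, within the major histocompatibility complex, and C3 (chr17:57203970-57228136) lies further along the same chromosome. C7 is at chr15:4988762-5063740, C1s1 at chr6:124530345-124542359 and Serping1 at chr2:84765387-84775444. In the annotation, C2 and Cfb share the locus of Gm20547 on the same strand, so reads may have been split between them in a way the counting does not reveal. C4b has a near-identical copy, C4a, and C1s1 a close paralog, C1s2, and their values are uncertain to that extent. C4a was listed at 0 to 24.4 and C1s2 at 0 to 8.03, far below C4b and C1s1.

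AngII in control females went with higher expression of C7, C4b, Serping1 and C1qa. These 4 of the 9 genes rose in Ctrl + AngII against Ctrl (limma, Benjamini-Hochberg adjusted p of at most 0.05), against 4.8% of all 13816 genes that rose by this rule and 8.17% that changed in either direction. None of the 9 fell. All 9 log2 fold changes were above 0, with the same libraries behind every gene. Their median was 0.44, against −0.0052 over all genes. C7 alone also passed a log2 fold change of 1, as did 0.919% of genes in this direction.

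C1qa and C1qb encode chains of the C1q recognition molecule. C1qa had 2537, 1843, 2414 and 2371 in Ctrl + AngII, against 1289, 1555, 2178 and 1799.6 in Ctrl. The highest Ctrl library, library 39, lay above the lowest Ctrl + AngII library, so the groups overlapped. C1qa was 1.36-fold higher, a log2 fold change of 0.44 (SE 0.13, adjusted p = 0.042, exact permutation p = 0.057). C1qb averaged 2104 ± 264 in Ctrl + AngII and 1606 ± 426 in Ctrl (SD, n = 4 each), and its log2 fold change of 0.41 missed the threshold (adjusted p = 0.069). The third chain, C1qc, which is not among the 9, averaged 2039 ± 246 in Ctrl + AngII and 1649 ± 366 in Ctrl (SD, n = 4 each), with a log2 fold change of 0.32 (adjusted p = 0.13).

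C1s1, the protease of the C1 complex that cuts C4 and C2, had 1985 to 2419 in Ctrl + AngII and 1439 to 2999 in Ctrl, a log2 fold change of 0.11 with a 95% interval of −0.19 to 0.41. C4b, which encodes the fourth component that C1s cleaves, had 2825, 2022, 3241 and 2730.2 in Ctrl + AngII, against 1123, 1390.4, 2952 and 1466 in Ctrl. The 3 Ctrl libraries other than 39 were below every Ctrl + AngII library, and library 39 was above 3 of them. The log2 fold change of C4b was 0.73 (SE 0.21, adjusted p = 0.041, exact permutation p = 0.11). C2, the protease partner of C4b in the C3 convertase, had 53.3 to 90.5 in Ctrl + AngII and 34.7 to 58.9 in Ctrl, a log2 fold change of 0.38 (95% interval −0.094 to 0.85).

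Cfb, factor B of the alternative pathway, had 345, 277, 435 and 373 in Ctrl + AngII, against 111, 149, 716 and 152 in Ctrl. C3, the component at which the pathways meet, had 17478, 12343, 20638 and 13652 in Ctrl + AngII, against 9132, 11129, 27127 and 12253 in Ctrl. In both genes library 39 was the highest of the 8 libraries while the other 3 Ctrl libraries were below every Ctrl + AngII library. With library 39 included, the log2 fold changes were 0.77 for Cfb (adjusted p = 0.33) and 0.21 for C3 (adjusted p = 0.65).

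C7, a component of the membrane attack complex, had 226, 220.0, 316 and 230.4 in Ctrl + AngII, against 50.1, 159, 147 and 90.1 in Ctrl. Every Ctrl + AngII library was above every Ctrl library, and C7 was the only one of the 9 whose groups did not overlap here, as 6.9% of all genes did in this direction. C7 was 2.40-fold higher, a log2 fold change of 1.26 (SE 0.26, adjusted p = 0.0039, exact permutation p = 0.0286, the smallest that 4 against 4 libraries allow). Serping1, the C1 inhibitor gene, had 6832, 4776, 6604 and 5789.6 in Ctrl + AngII, against 3478, 4369.9, 5246 and 4550.3 in Ctrl, with overlap through library 39. It was 1.36-fold higher with a log2 fold change of 0.45 (SE 0.11, adjusted p = 0.015, exact permutation p = 0.057).

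How many of the 9 rose depended on single libraries. Without Ctrl library 39, when 789 of 13806 genes rose, 7 of the 9 did so: C1qa, C1qb, C4b, Cfb, C3, C7 and Serping1, with log2 fold changes of 1.37 for Cfb (adjusted p = 0.0088), 0.55 for C3 (adjusted p = 0.017) and 1.02 for C4b (adjusted p = 2.7e-04). Without Ctrl + AngII library 40 or 42, or without Ctrl library 37, only C7 passed, as also without libraries 49 to 54, which are 1 per group and are numbered apart from the rest. Without Ctrl + AngII library 52, or Ctrl library 38 or 51, C7 and Serping1 passed, and without Ctrl + AngII library 41, 5 passed. Of all genes, 663 rose in the main fit, 458 without library 40, 559 without 42, 438 without 37 and 362 without 49 to 54. The numbers were 472 without library 52, 566 without 38, 598 without 51 and 673 without 41, of 13810 to 13819 genes tested. C7 passed in each of the 8 fits that left out a library, with log2 fold changes of 0.93 to 1.48. On the values as deposited, before the common scale, the median of all genes was shifted by −0.28 in this comparison and C7 was the 1 member to pass, while of all 13862 genes 298 passed higher and 6688 lower.

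**Figure D1:**
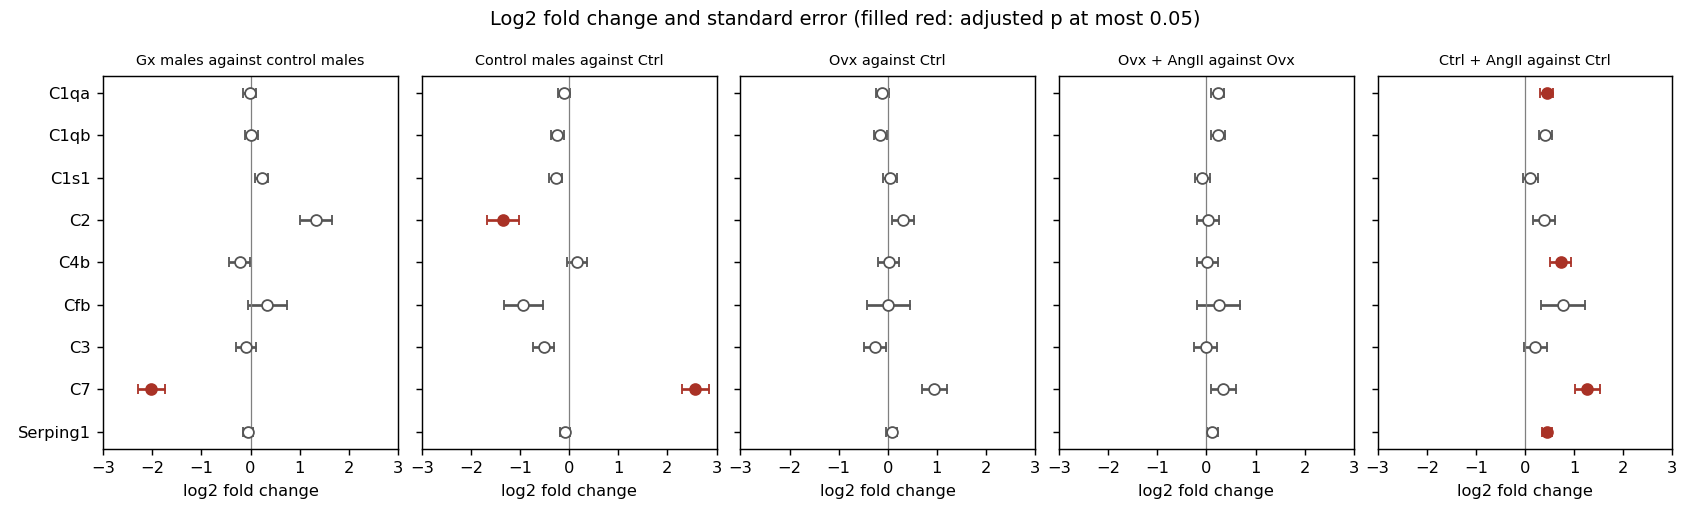
Log2 fold changes (x axis) of the 9 complement genes (rows) in 5 comparisons, as points with standard errors from limma; filled red points have an adjusted p of at most 0.05. C7 is filled in 3 panels, at −2.02 in Gx males against control males, 2.56 in control males against Ctrl and 1.26 in Ctrl + AngII against Ctrl, while no point is filled in Ovx against Ctrl or in Ovx + AngII against Ovx.

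Marker genes of cell types gave these values beside the AngII result. None of 15 macrophage markers passed (11 of 15 above 0, median log2 fold change 0.19), and their summed level was 9353 to 11808 in Ctrl + AngII and 7913 to 13051 in Ctrl. Of 11 fibroblast markers 5 rose (median 0.28), and their summed level was 71950.1 to 89172 in Ctrl + AngII and 61643 to 76177 in Ctrl. All 8 markers of activated fibroblasts rose, with a median of 2.27. None of 15 interferon-stimulated genes passed, with 14 of 15 above 0 and a median of 0.52. The part of these cell types in the complement result was not tested.

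In ovariectomized females no member passed after AngII. Of the 9 genes 0 passed in Ovx + AngII against Ovx by limma, against 10.2% of all genes, and 0 had an unadjusted p under 0.05, against 25.1% of all genes. Their log2 fold changes ran from −0.080 to 0.34 with a median of 0.12, against 0.0081 over all genes. C7 had 223, 242, 294 and 239.9 in Ovx + AngII, against 176, 190.5, 181 and 245 in Ovx, a log2 fold change of 0.34 (95% interval −0.20 to 0.87). The lowest Ovx + AngII library was below the highest Ovx library, library 53. C4b averaged 1670.2 ± 281 in Ovx + AngII and 1643 ± 189 in Ovx (SD, n = 4 each), a log2 fold change of 0.015 (95% interval −0.43 to 0.46). C3 averaged 11190.1 ± 746 in Ovx + AngII and 11347 ± 1220.1 in Ovx (SD, n = 4 each), a log2 fold change of −0.016 (95% interval −0.49 to 0.46). Serping1 had 4802 to 5306 in Ovx + AngII and 4283 to 4943 in Ovx, a log2 fold change of 0.12 (95% interval −0.11 to 0.35). C1qa (0.23) and C1qb (0.23) had adjusted p-values of 0.28 and 0.30. All 8 activated fibroblast markers rose in Ovx + AngII too, with a median of 2.08.

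The difference between the AngII effects, in Ovx minus in Ctrl, was below 0 for all 9 genes, with the same libraries behind every gene. The median difference was −0.33, against 0.0029 over all genes. It was −0.93 for C7 (SE 0.36, adjusted p = 0.38), −0.71 for C4b (adjusted p = 0.41) and −0.33 for Serping1 (adjusted p = 0.47). None of the 9 passed by limma, against 0.0579% of all genes, and 3 had an unadjusted p under 0.05, against 10.4% of all genes. Without Ctrl library 39, C4b had a difference of −1.001 (adjusted p = 0.054). A difference in the AngII response of these genes between Ovx and control females was not shown by this test.

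After AngII, 8 of the 9 genes were lower in Ovx + AngII than in Ctrl + AngII in their means of log2 values, with a median of −0.32, but none passed the test by limma, against 1.01% of all genes. An unadjusted p under 0.05 was found for 5 of the 9, against 11.5% of all genes, with the same libraries behind every gene. C4b had 1306, 1664, 1988 and 1721 in Ovx + AngII, against the 2022 to 3241 of Ctrl + AngII. C3 had 10722, 10954, 12299 and 10785 in Ovx + AngII, against the 12343 to 20638 of Ctrl + AngII. In these 2 genes every Ovx + AngII library was below every Ctrl + AngII library, as in 3.53% of all genes in this direction. Their log2 fold changes were −0.69 for C4b (SE 0.21, adjusted p = 0.15) and −0.49 for C3 (SE 0.23, adjusted p = 0.42). C7 had a log2 fold change of 0.019 (95% interval −0.52 to 0.55).

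Without AngII, ovariectomy moved no member past the threshold by limma, against 0.109% of all genes, and 1 of the 9 had an unadjusted p under 0.05, against 12.4% of all genes. C7 had 176, 190.5, 181 and 245 in Ovx, against 50.1, 159, 147 and 90.1 in Ctrl, without overlap, a pattern shared in this direction by 3.45% of genes. Its log2 fold change was 0.94 (SE 0.26, adjusted p = 0.13), and 1.12 (adjusted p = 0.048) without Ctrl library 39. That fit, in which 114 of 13806 genes passed, was the only 1 of 18 alternatives in which C7 passed. Over these alternatives its log2 fold change ran from 0.61 to 1.16, with adjusted p up to 0.67. The other 8 genes had log2 fold changes of −0.26 to 0.31. C7 in Ovx, at 198 ± 31.6 (SD, n = 4), lay between Ctrl + AngII at 248 ± 45.3 and Ctrl at 112 ± 50.9 (SD, n = 4 each).

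C7 was the member that stood out in males. It had 81.2, 159.6, 168 and 221 in Gx males, against 619, 453, 627 and 763 in control males. Every Gx male library was below every control male library, as in 2.67% of all genes in this direction, and the nearest libraries had 221 in Gx males and 453 in control males. C7 fell in Gx males to 0.246 of the control male level, a log2 fold change of −2.02 (SE 0.28, adjusted p = 4.0e-04, exact permutation p = 0.0286). Of 13799 genes, 11 (0.0797%) changed in this comparison, 4 (0.029%) of them lower, and C7 was the only gene that fell past a log2 fold change of 1 (0.00725%). It passed in each of the 8 fits that left out a library, at −2.21 to −1.74, and in all 18 alternatives. None of 15 macrophage markers passed in this comparison (median log2 fold change −0.075), and of 11 fibroblast markers 1, Dpep1, fell (median 0.18). All 7 MHC class II genes were above 0, with a median of 0.63, and none passed. Their summed level was 10678 to 13260 in Gx males and 6949 to 8838 in control males. The part of these cell types and genes in the C7 result was not tested.

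**Figure D2:**
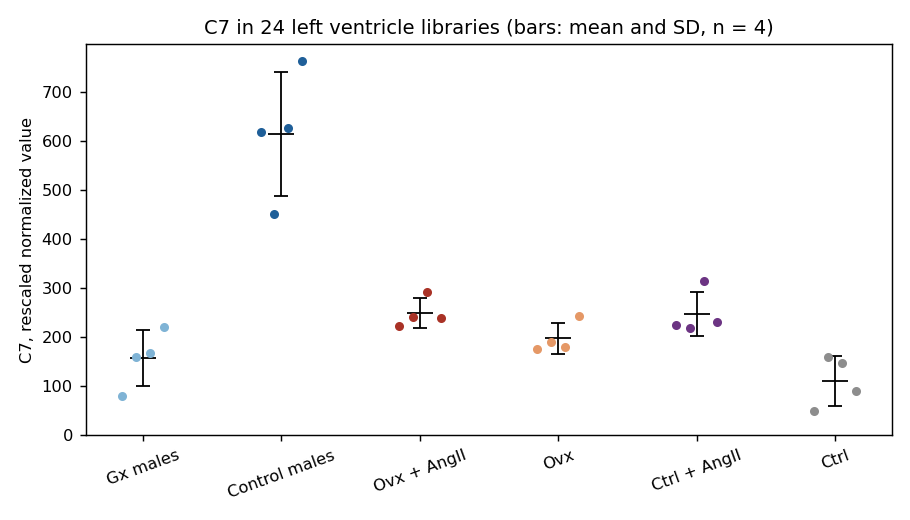
C7 in 24 left ventricle libraries as rescaled normalized values (y axis, from 0), with 1 point per library and black bars for the mean and SD of 4 libraries per group. The 4 control male libraries, at 453 to 763, are above the libraries of all the other groups, which run from 50.1 to 316.

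Control males also had more C7 than control females. C7 was 5.91-fold higher in control males than in Ctrl, a log2 fold change of 2.56 (SE 0.28, adjusted p = 2.4e-06), without overlap, as in 3.78% of all genes in this direction. In this comparison 1.2% of all genes changed, and of the 9 members C7 rose and C2 fell. In Gx males C7 averaged 157 ± 57.6, against 112 ± 50.9 in Ctrl (SD, n = 4 each), and the 4 Gx male libraries overlapped with those of Ctrl. The order of group means was control males, Ovx + AngII, Ctrl + AngII, Ovx, Gx males and Ctrl. Control males apart, each group overlapped with its neighbour in that order.

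Gonadectomy went with less C7 in males, while C7 in Ovx females lay above Ctrl. The difference of the effects, in males minus in females, was −2.97 on the log2 scale (SE 0.39, 95% interval −3.77 to −2.16, adjusted p = 8.5e-04). C7 was the 1 gene of 13799 (0.00725%) that passed this test. It passed in each of the 16 fits without a library, at −3.18 to −2.63. Without libraries 49 to 54 the value was −2.89 and the adjusted p 0.089.

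C2 had 31.5, 45.2, 82.9 and 46.0 in Gx males, against 15.1, 23.7, 8.59 and 37.4 in control males. The groups overlapped through control male library 49 and Gx male library 34. C2 was 2.52-fold higher in Gx males on average, a log2 fold change of 1.33 (SE 0.33), which did not pass over all genes (adjusted p = 0.14). Without control male library 49 it was 1.66 (adjusted p = 0.015). Control males had less C2 than Ctrl, which had 58.9, 34.7, 53.2 and 51.8, with a log2 fold change of −1.35 (SE 0.33, adjusted p = 0.040). This call was lost without control male library 31 or 33 or without Ctrl library 37, 39 or 51, with adjusted p-values of up to 0.13, and it was also lost without the filter on low values, without the variance trend, with library quality weights, with only the libraries of these groups in the fit and without libraries 49 to 54. C7 and C2 had opposite signs in both male comparisons.

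The remaining 7 genes gave no call in males. Calls were rare there, at 0.0797% of all genes between Gx and control males and 1.2% between control males and Ctrl. C1qa averaged 1547 ± 130.2 in Gx males and 1573 ± 231 in control males (SD, n = 4 each), a log2 fold change of −0.017 (95% interval −0.28 to 0.24). C1qb averaged 1343 ± 96.0 in Gx males and 1336 ± 172 in control males (SD, n = 4 each), a log2 fold change of 0.014 (95% interval −0.25 to 0.28). C1s1 averaged 1912 ± 183 in Gx males and 1634 ± 107 in control males (SD, n = 4 each), a log2 fold change of 0.22 (95% interval −0.048 to 0.50). The levels of the C1q chains and of C1s1 overlapped between these groups. C4b averaged 1552 ± 197 in Gx males and 1848 ± 474 in control males (SD, n = 4 each), a log2 fold change of −0.22 (95% interval −0.66 to 0.21). Cfb averaged 138 ± 19.3 in Gx males and 112 ± 38.6 in control males (SD, n = 4 each), a log2 fold change of 0.34 (95% interval −0.48 to 1.17). C3 averaged 8901 ± 923 in Gx males and 9518 ± 1392 in control males (SD, n = 4 each), a log2 fold change of −0.091 (95% interval −0.52 to 0.33). All of these intervals include 0, and that of Cfb is the widest. Serping1 averaged 3968 ± 273 in Gx males and 4132 ± 450.2 in control males (SD, n = 4 each), a log2 fold change of −0.054 (95% interval −0.27 to 0.16). Between control males and Ctrl, Cfb averaged 112 ± 38.6 in control males and 282 ± 289.8 in Ctrl, and C3 averaged 9518 ± 1392 in control males and 14910.2 ± 8246 in Ctrl (SD, n = 4 each). Their log2 fold changes, −0.93 for Cfb (adjusted p = 0.32) and −0.52 for C3 (adjusted p = 0.26), moved to −0.34 and −0.19 without Ctrl library 39. On the values as deposited, where the median of all genes was shifted by −0.36 between control males and Ctrl, 8 of the 9 passed, 7 lower and C7 higher, while of all 13811 genes tested there 9295 passed lower and 37 higher.

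**Figure D3:**
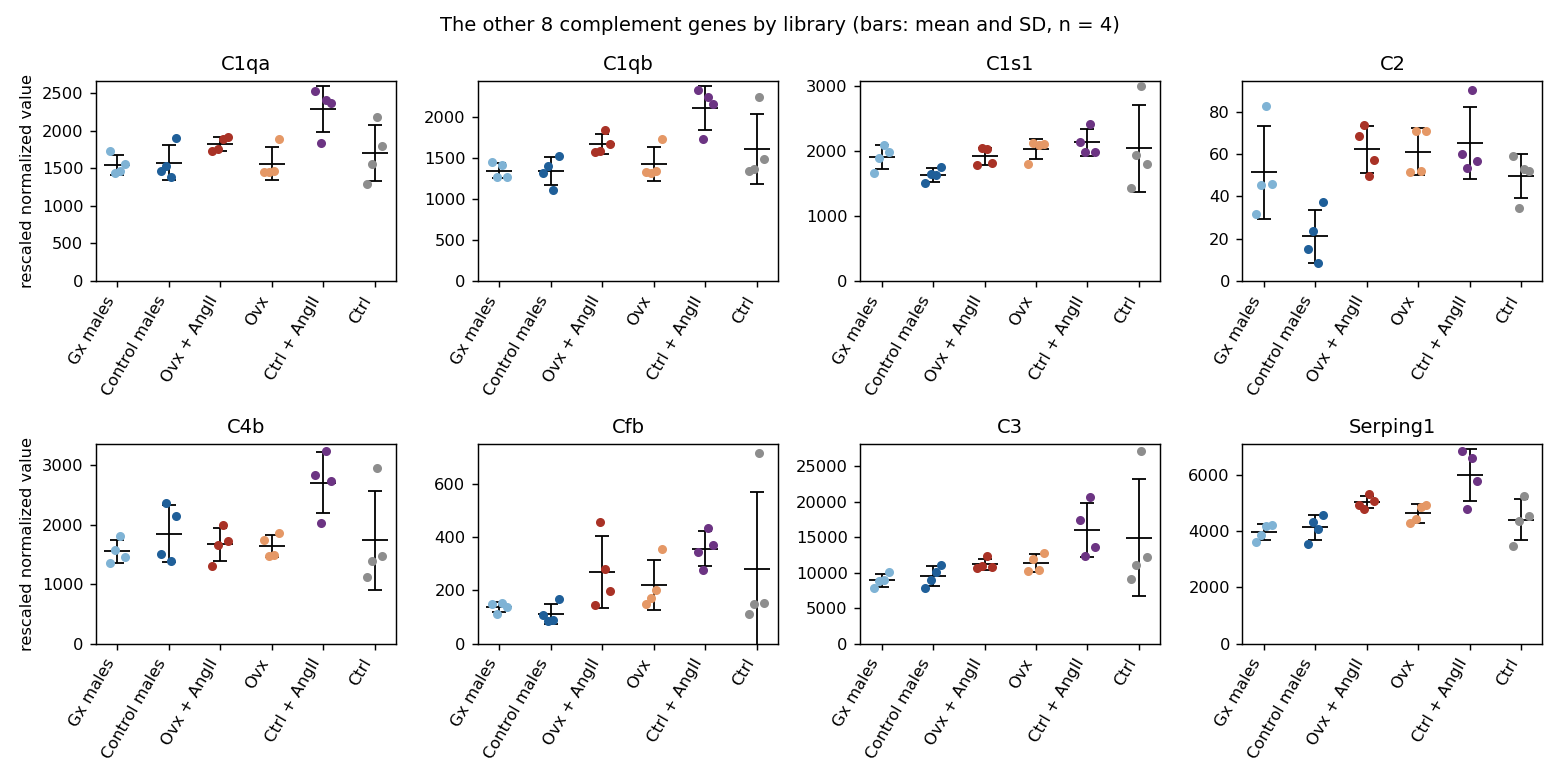
The other 8 complement genes by library, as rescaled normalized values (y axes, each from 0), with 1 point per library and black bars for the mean and SD of 4 libraries; the SD bar of Cfb in Ctrl is cut at 0. The highest Ctrl point in C3 (27127), Cfb (716), C4b (2952) and C1s1 (2999) is library 39 in each case.

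Most of these genes varied together between libraries of the same group. After group means were subtracted, the 28 pairs without C2 had Pearson r of 0.30 to 0.91 over 24 libraries, with a median of 0.73, which share depth and scale factors and rest in part on library 39. Without it the range was 0.17 to 0.87 and the median 0.64. C2 had r of only 0.12 to 0.43 with the other 8 genes. C1qa and C1qb, the chains of the same molecule, had r = 0.89, and 0.87 without library 39.

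Ctrl library 39 was above its group mean in all 9 genes. Its summed complement level, 43654, was 1.98 times the median of the other 3 Ctrl libraries. Its summed level was 4.45 times that median for 8 monocyte and neutrophil markers, 2.74 times for lymphocyte markers, 2.27 times for MHC class II genes, 2.03 times for interferon-stimulated genes, 2.03 times for erythroid genes and 1.43 times for macrophage markers. For fibroblast markers it was 0.85 times and for cardiomyocyte markers 0.96 times. The part of these cells in the high complement values of library 39 was not tested.

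**Figure D4:**
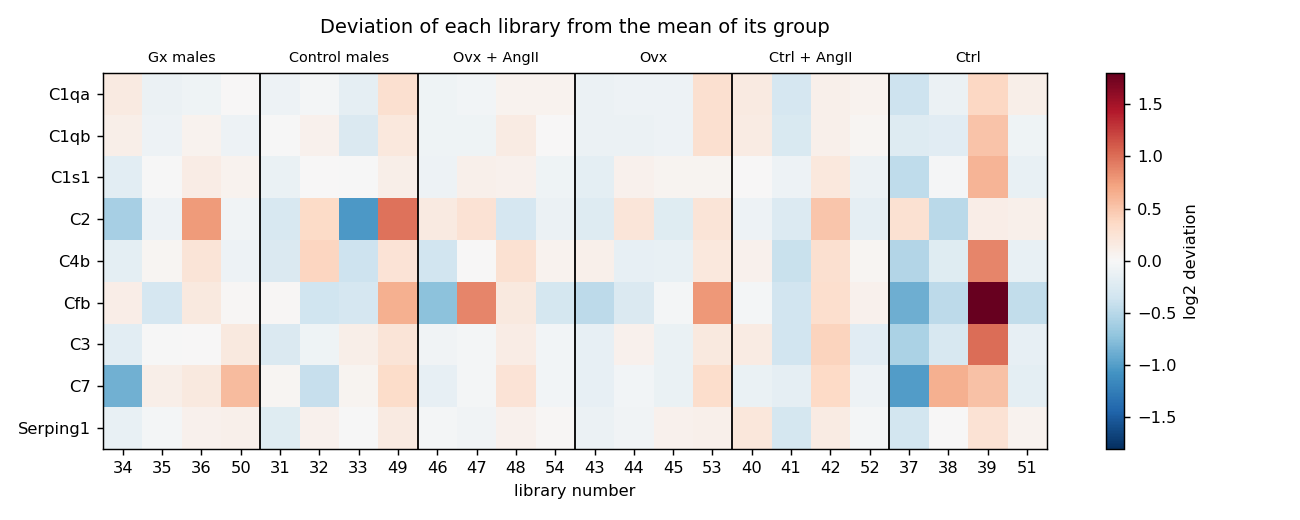
Deviation of each library (columns, by library number and group) from the mean of its group for the 9 complement genes (rows), as differences of log2 values on a colour scale from −1.8 (blue) to 1.8 (red). The column of Ctrl library 39 is red in all 9 rows and deepest for Cfb, and the row of C2 departs from the others.

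Genes outside the complement lists that followed each member closely within groups were looked for among 11898 genes with a mean of at least 50, as a description over 24 libraries. C7 was followed by Atp6v1a (r = 0.85), a subunit of the vacuolar proton pump, and by Olfml3 (r = 0.79), with r of 0.80 to 0.83 without library 39. C1qa was followed by Laptm5 (r = 0.93), a lysosomal protein of blood cells, by Cxcl16 (r = 0.91) and by Sdc3 (r = 0.89). C1qb likewise had Laptm5 first (r = 0.89). C4b was followed by Il18bp (r = 0.89) and Serpina3n (r = 0.85), C3 by Unc93b1 (r = 0.92) and Cfb by Nckap1l (r = 0.88). C1s1 was followed by Tmem176b (r = 0.89) and Serping1 by Vcam1 (r = 0.84), the endothelial adhesion molecule. Without library 39, r was 0.81 for Il18bp with C4b, 0.85 for Unc93b1 with C3 and 0.81 for Nckap1l with Cfb. It was then 0.84 for Serpina3n, 0.84 for Tmem176b, 0.82 for Vcam1, 0.82 for Laptm5 with C1qb and 0.93 for Laptm5 with C1qa. C2 had no gene above r = 0.71 (Tfam).

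The rest of the complement system was measured alongside. Of 48 other complement genes listed, 45 were in the table and 24 were high enough to be tested. Several circulating components were at or near 0. Mbl1, Mbl2 and C8b, of the lectin and terminal steps, were listed at 0 in every library, and Hc, which encodes C5, reached at most 4.34, C8a 2.70 and C9 0.792. C6 was low, at 5.81 to 42.4, with group means of 2.37 to 6.54 per kb, where C7, which binds after C6 in the complex, stood at 98.4 per kb over all libraries.

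Among the 24 tested, 2 rose in Ctrl + AngII against Ctrl and none fell, against 8.17% of all genes changed, with a median of 0.051. Masp1, a protease of the lectin pathway, averaged 513 ± 71.2 in Ctrl + AngII and 262 ± 112 in Ctrl (SD, n = 4 each), with a log2 fold change of 1.05 (adjusted p = 0.0027). Clu, clusterin, a chaperone that also binds terminal complexes, averaged 27379 ± 2370.5 in Ctrl + AngII and 19738 ± 1066 in Ctrl (SD, n = 4 each), with a log2 fold change of 0.47 (adjusted p = 0.0037). Colec11, a lectin that can start the lectin pathway, fell in Ovx + AngII against Ovx, with a log2 fold change of −0.40 (adjusted p = 0.020), and had a log2 fold change of −0.17 in Ctrl + AngII against Ctrl. The 7 receptors for complement fragments that were tested were all above 0 in Ctrl + AngII against Ctrl, with a median of 0.34, and none of them passed. In Ovx + AngII against Ovx 6 of the 7 were above 0, with a median of 0.33, and none passed. C1ra, the partner protease of C1s1, had a log2 fold change of 0.14 in Ctrl + AngII against Ctrl (adjusted p = 0.56).

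**Figure D5:**
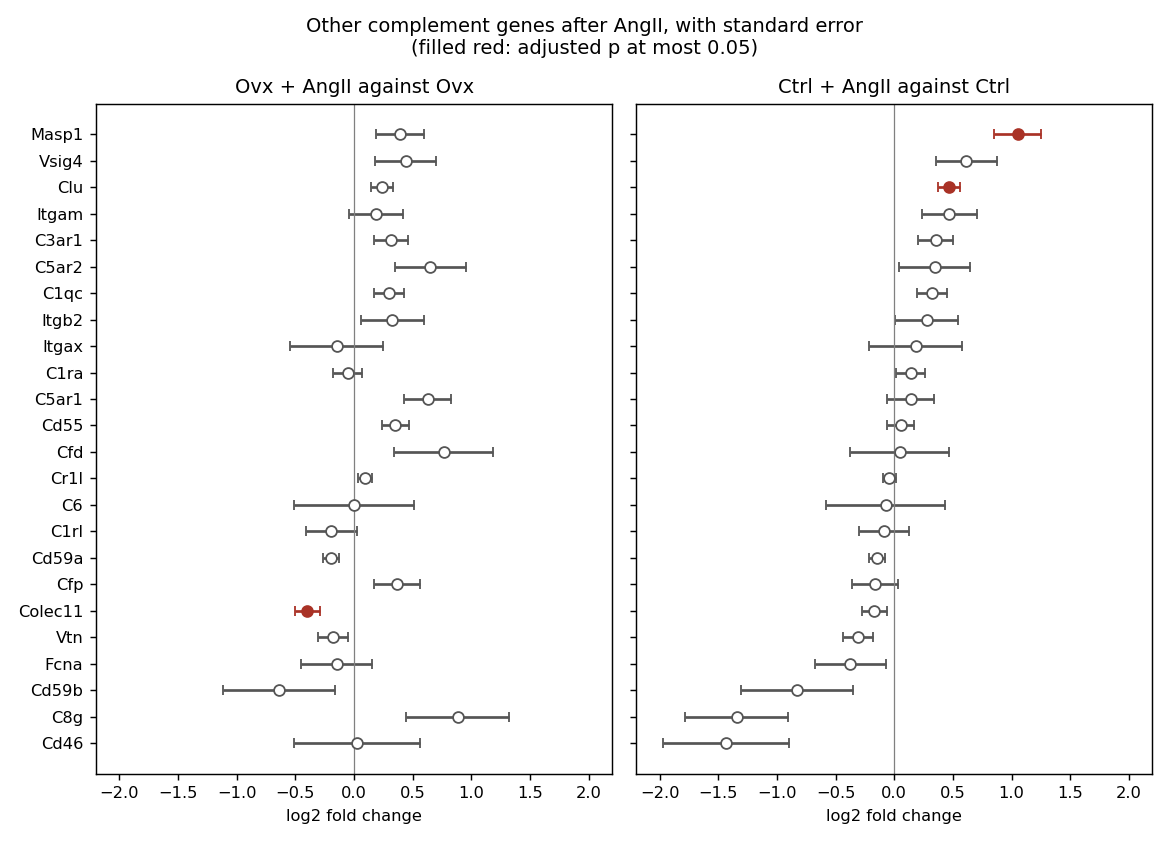
Log2 fold changes (x axis) after AngII of the 24 other listed complement genes that were tested (rows), in Ovx + AngII against Ovx (left) and Ctrl + AngII against Ctrl (right), as points with standard errors from limma; filled red points have an adjusted p of at most 0.05. Masp1 and Clu are filled on the right and Colec11 on the left.

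In the male comparisons, none of the 24 passed between Gx males and control males, where only 0.0797% of all genes changed. Cfd, factor D, which cleaves factor B and is made mainly by fat cells, fell in control males to 8.93 ± 6.27, against 43.1 ± 13.7 in Ctrl (SD, n = 4 each), a log2 fold change of −2.35 (SE 0.51, adjusted p = 0.023). Of 3 adipocyte markers tested, 2 (Adipoq and Cidec) also passed as lower. Log2 fold changes of the 3 ran from −3.37 to −0.17, with a median of −2.68. Adipoq was low, with a median of 9.30 over the 24 libraries, and 4 of the 7 listed adipocyte markers had means under 10. Summed over all 7, the median library held 10105 among control males, beside 11568 for Ctrl, and these groups overlapped. Adipoq reached at most 32.3, so this sum came almost wholly from Fabp4 and Cidec. It does not follow Adipoq and is not a measure of fat content. The part of fat tissue in the Cfd value was not tested.

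The bases before the start sites were read for those members that RefSeq's promoter table (GRCm38.p6) held, 4 of the 9. They are shown for C7, the gene with the widest range between groups, and for C3 and C1qb, which belong to other steps of the cascade and gave no call in males. C1s1 was held as well, with more than 1 listed start, and its bases are not shown. Each run is the 250 bases before the start, 5′ to 3′ on the gene's own strand, with capitals marking matches to the 3 motifs named below. The C7 run is chr15:5063774-5064023 (minus strand), the C3 run chr17:57228137-57228386 (minus strand) and the C1qb run chr4:136886201-136886450 (minus strand).
C7: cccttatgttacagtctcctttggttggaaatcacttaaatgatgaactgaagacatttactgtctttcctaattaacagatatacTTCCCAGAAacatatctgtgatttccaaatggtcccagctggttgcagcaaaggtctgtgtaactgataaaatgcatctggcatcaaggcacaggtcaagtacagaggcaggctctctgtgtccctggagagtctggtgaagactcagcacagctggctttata
C3: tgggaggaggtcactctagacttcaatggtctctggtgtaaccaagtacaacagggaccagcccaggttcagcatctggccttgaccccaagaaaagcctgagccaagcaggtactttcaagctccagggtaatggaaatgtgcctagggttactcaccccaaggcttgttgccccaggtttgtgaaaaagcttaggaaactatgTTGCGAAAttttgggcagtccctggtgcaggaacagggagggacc
C1qb: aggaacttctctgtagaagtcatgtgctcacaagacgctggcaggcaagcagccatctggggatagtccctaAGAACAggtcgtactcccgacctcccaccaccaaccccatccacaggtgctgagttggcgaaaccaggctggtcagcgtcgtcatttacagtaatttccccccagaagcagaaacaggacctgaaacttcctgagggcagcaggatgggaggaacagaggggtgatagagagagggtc
On either strand, C7 held 1 match to the STAT motif TTCNNNGAA, the letters TTCCCAGAA at 164 to 156 bases before the start, which 7.02% of 32851 promoters hold. C3 held 1 match to the C/EBP motif TTGCNNAA, at 45 to 38 bases before the start (9.56% of promoters). C1qb held 1 match to AGAACA, a hexamer bound by the androgen and glucocorticoid receptors, at 178 to 173 bases before the start (16.1% of promoters). The C7 and C3 runs held no match to that hexamer. C1s1, not shown, also held it, at 68 to 63 or 30 to 25 bases before the start, depending on the start used. From the latter start, C1s1 also held a C/EBP match at 242 to 235 bases. None of the 3 motifs overlapped another in these runs. These matches describe letters in a short window and do not show that a factor binds there or elsewhere.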

How the data were processed

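Left ventricle mRNA was sequenced from 24 libraries, each stated to be a pool of RNA from 2 mice, prepared with a stranded kit. The authors aligned reads with STAR to mm10, the submitters' processing notes also name Salmon, and the deposited table holds normalized signal per gene, stated in the methods as DESeq2 output, with versions not given in the sources used here. Whole reads could not be recovered from the deposited signal (at most 2.16% of values per library were whole multiples of the step, tolerance 0.001), so no count test was used and depth is known only relative to the median library. Columns of the groups sat on different scales, and a factor per library, the median ratio to the geometric mean of each gene over 13871 genes, brought all 24 to a common scale. Lines without a usable symbol (14 turned into dates by a spreadsheet, 0.0552% of the summed signal, and 1 without a name) were left out.

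limma 3.58.1 in R 4.3.3 was fitted to log2(value + 1) of genes with a mean of at least 10, with a mean-variance trend and Benjamini-Hochberg adjustment over all genes. Female comparisons used the 16 female libraries, and male and sex comparisons all 24. Folds are on the log2(value + 1) scale, which understates changes of low genes such as C2. A gene passed at an adjusted p of at most 0.05, two-sided. Exact two-sided permutation tests used all 70 labellings of 4 against 4. Pools are the replicates, and p-values measure the spread between pools. Likeness was Pearson r of log2 values after subtraction of group means. Gene positions and exon lengths came from GENCODE vM21 (GRCm38) and promoters from RefSeq (GRCm38.p6). Longer motifs (receptor palindromes, interferon and NF-kB elements) were also searched and are not reported here.

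The 9 genes, the other complement genes and the marker lists were chosen with earlier results of these data known. All 9 are named. Other complement genes are named where they passed the test, at most 4 per comparison, or where their level places a member. Alternatives were the deposited scale, an upper-quartile scale, other pseudocounts (0.5 and 5) and filters on low values, no trend, library quality weights, other libraries in the fit, and leaving out libraries. Some genes that these rules would name are not reported here.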

Additional observations from a re-analysis of the deposited data

Results flagged for a closer look

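Among 54 sets of 4 libraries (9 genes in 6 groups), 6 held a library whose distance to its nearest neighbour took up a larger part of the whole range than Dixon's 95% critical value allows, where chance gives about 1 in 20 sets. C1qa had 1888 and C1qb 1730.1 in Ovx library 53, where the median of the other 3 Ovx libraries was 1453 for C1qa and 1319 for C1qb. C1s1 had 1795 in Ovx library 43, below a median of 2104 in the other 3 libraries. Cfb had 716 in Ctrl library 39, above a median of 149 in the other 3 libraries. C3 had 12299 in Ovx + AngII library 48, above a median of 10785 in the other 3 libraries. C7 had 316 in Ctrl + AngII library 42, above a median of 226 in the other 3 libraries.

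The effect of gonadectomy on C7 differed between the sexes, by −2.97 on the log2 scale in males minus in females (limma, adjusted p = 8.5e-04). All 4 Gx male libraries were below all 4 control male libraries, as in 2.67% of all genes in this direction. All 4 Ovx libraries were above all 4 Ctrl libraries, as in 3.45% of all genes in this direction. In Ovx against Ctrl, C7 did not pass by limma (adjusted p = 0.13). The difference between the sexes did not pass by limma without libraries 49 to 54 (adjusted p = 0.089).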

How the results depend on the processing

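No paired analysis was possible because the groups share no library numbers. In Ctrl + AngII against Ctrl, the count of the 9 genes that passed was 4, and 1 on the values as deposited and without libraries 49 to 54, 2 without the filter, 2 without the trend, and 5 (C1qb added) with library quality weights and with all 24 libraries in the fit. In Ovx + AngII against Ctrl + AngII it was 0, and 1 with library quality weights (C4b, −0.70, adjusted p = 0.038). In control males against Ctrl it was 2, and 8 on the values as deposited, and 1 without the filter, without the trend, with quality weights, with only the libraries of these groups in the fit and without libraries 49 to 54. For the gonadectomy difference it was 1, and 0 without libraries 49 to 54. Leaving out each library in turn gave counts of 1 to 7 in Ctrl + AngII against Ctrl, 0 to 1 in Ovx against Ctrl, 1 to 2 in Gx males against control males and 1 to 2 in control males against Ctrl, and did not move the others. Over all genes, Ctrl + AngII against Ctrl gave 1129 calls, and 576 without libraries 49 to 54, 926 without the filter and 856 without the trend. It gave 1288 with quality weights and 1196 with all 24 libraries in the fit. Ovx + AngII against Ctrl + AngII gave 139 calls over all genes, and 289 with quality weights. Control males against Ctrl gave 165, and 9332 as deposited, 93 without the filter, 77 without the trend and 157 with quality weights. The same comparison gave 30 with only the libraries of these groups in the fit and 31 without libraries 49 to 54. The gonadectomy difference gave 1, and 0 without libraries 49 to 54.

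Signs turned only for values that had not passed. On the values as deposited, log2 fold changes in Ctrl + AngII against Ctrl became −0.17 for C1s1 and −0.064 for C3. In Ovx + AngII against Ovx they became −0.058 for C2 and −0.069 for C4b, and C2 had −0.0087 with quality weights and C3 0.060 without libraries 49 to 54. The AngII difference became 0.010 for C1qb and 0.0013 for C1s1 as deposited and 0.013 for Cfb without libraries 49 to 54. In Ovx against Ctrl, values as deposited were −0.044 for C1s1, −0.064 for C4b, −0.072 for Cfb and −0.0015 for Serping1, and values without libraries 49 to 54 were −0.021 for C1s1, −0.088 for C4b and −0.39 for Cfb. In Ovx + AngII against Ctrl + AngII, C2 had 0.058 as deposited and C7 −0.023 with quality weights. In Gx males, C1qa had 0.068 as deposited and 0.076 without libraries 49 to 54, and Serping1 0.031 as deposited. C4b had −0.20 as deposited in control males against Ctrl, and Serping1 0.033 in the gonadectomy difference.

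Where leaving out a library turned a sign, log2 fold changes ran as follows. In Ctrl + AngII against Ctrl they were −0.041 to 0.31 for C1s1. In Ovx + AngII against Ovx they were −0.063 to 0.13 for C2, −0.075 to 0.13 for C4b, −0.047 to 0.51 for Cfb and −0.063 to 0.043 for C3. In Ovx against Ctrl they were −0.23 to 0.018 for C1qa, −0.25 to 0.020 for C1qb, −0.11 to 0.24 for C1s1, −0.15 to 0.31 for C4b, −0.28 to 0.61 for Cfb, −0.45 to 0.071 for C3 and −0.027 to 0.17 for Serping1. In Ovx + AngII against Ctrl + AngII they were −0.14 to 0.12 for C2 and −0.061 to 0.14 for C7. In Gx males against control males they were −0.073 to 0.080 for C1qa and −0.072 to 0.079 for C1qb. In control males against Ctrl they were −0.23 to 0.026 for C1qa, −0.014 to 0.45 for C4b and −0.19 to 0.0029 for Serping1. In the gonadectomy difference they were −0.035 to 0.22 for C1qa, −0.0052 to 0.26 for C1qb, −0.017 to 0.34 for C1s1, −0.27 to 0.63 for Cfb and −0.16 to 0.36 for C3.

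Of 1440 alternative values of 72 gene results, 1317 kept their direction and side of the threshold, 36 lost and 15 gained a call and 72 turned sign. The deposited scale moved the median of all genes by −0.36 in control males against Ctrl, and by −0.28 in Ctrl + AngII against Ctrl. All genes then gave 298 higher and 6688 lower calls in Ctrl + AngII against Ctrl, where the common scale gave 663 and 466, and 37 higher and 9295 lower in control males against Ctrl, where it gave 101 and 64. The medians moved by 0.19 in the AngII difference, 0.17 in the gonadectomy difference and 0.11 in Ovx + AngII against Ctrl + AngII. C7 passed under each alternative in Ctrl + AngII against Ctrl, in Gx males against control males and in control males against Ctrl. The low level of C2 limits its precision, and the cause of the changed calls was not tested.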
